A study of Mus musculus with 158 samples.

Results

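B6xSPRET is the F1 hybrid of a C57BL/6J (B6) dam and a SPRET/EiJ sire, and its autosomal DNase I hotspots were compared tissue by tissue with those of the other F1 hybrids of B6. The members were taken by label and were the 4 B6xSPRET hotspot sets (liver, kidney, lung and B cells) of the 20 sets in all, which left 16 sets of B6x129, B6xC3H, B6xCAST and B6xPWK. All mice were 8 weeks old, untreated and without engineered alleles, and every hybrid, B6xSPRET included, carried a B6 haplotype from its mother. The sires of B6xC3H, B6xCAST and B6xPWK were C3H/HeJ, CAST/EiJ and PWK/PhJ, and that of B6x129 was the inbred strain its label gives. Liver, kidney and lung were whole tissues, typically pooled from several mice, and B cells came from the femoral marrow of females after depletion of cells with CD43 and Mac-1/CD11b. The labels list 18 B6xSPRET DNase-seq libraries, made up of 7 (liver), 5 (kidney), 4 (lung) and 2 (B cells), and the authors pooled those of a tissue before they called hotspots. The hotspot set is therefore the unit here and the 4 tissues are the repeats. The spread between mice cannot be read from the sets, and with a single hybrid of this species a p-value speaks of the spread between these 20 sets.

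DNase I cuts DNA where it is free of nucleosomes, and a hotspot is a stretch where the cuts cluster beyond the local background, as they do at promoters, enhancers and insulators. SPRET/EiJ is an inbred line of Mus spretus, a species apart from the house mouse. CAST/EiJ and PWK/PhJ come from other subspecies of the house mouse, and the sires of B6x129 and B6xC3H are classical laboratory strains close to B6. In such an F1, the transcription factors of a common nucleus act on both parental genomes. Each hotspot carries a score, the −log10 of its false discovery rate (FDR), which starts at the value for FDR 5% and has a ceiling of 100. All positions are in mm10 and counted from 1.

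The clearest property of B6xSPRET was a group of 242 regions with a hotspot in all 4 of its tissues and in none of the 16 other sets. The same count was 81 in B6xCAST, 50 in B6xPWK, 8 in B6x129 and 0 in B6xC3H. Repeats and shared sequence marked this group: 66.2% of the bases in its 150 bp centre windows were soft-masked as repeats in the reference, and 86 of the 242 regions (35.5%) shared a stretch of 20 bases with another of them. Linking regions by such stretches gave 14 families, with 45, 10 and 6 members in the 3 most numerous. The linking was chosen after the values of these regions had been seen. 3 members of each of the 2 most numerous families are shown because they have the highest scores of these families. They are reference sequence read 5′ to 3′ on the strand named, with bases that another of the 242 regions shares through a stretch of 20 bases in capitals.

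The first family, of 45 regions on 13 chromosomes, is shown by these members. chr14:44299266-44299405 (+ strand): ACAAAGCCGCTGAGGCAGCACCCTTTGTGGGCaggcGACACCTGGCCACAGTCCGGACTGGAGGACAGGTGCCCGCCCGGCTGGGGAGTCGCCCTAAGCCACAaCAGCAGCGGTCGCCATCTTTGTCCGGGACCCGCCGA chr6:68362248-68362440 (- strand): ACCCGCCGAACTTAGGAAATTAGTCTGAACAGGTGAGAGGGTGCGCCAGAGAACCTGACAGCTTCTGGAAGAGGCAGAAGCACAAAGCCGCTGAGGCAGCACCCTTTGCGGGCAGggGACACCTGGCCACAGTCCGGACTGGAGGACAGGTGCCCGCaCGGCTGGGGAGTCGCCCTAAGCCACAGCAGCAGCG chr6:68398790-68399069 (+ strand): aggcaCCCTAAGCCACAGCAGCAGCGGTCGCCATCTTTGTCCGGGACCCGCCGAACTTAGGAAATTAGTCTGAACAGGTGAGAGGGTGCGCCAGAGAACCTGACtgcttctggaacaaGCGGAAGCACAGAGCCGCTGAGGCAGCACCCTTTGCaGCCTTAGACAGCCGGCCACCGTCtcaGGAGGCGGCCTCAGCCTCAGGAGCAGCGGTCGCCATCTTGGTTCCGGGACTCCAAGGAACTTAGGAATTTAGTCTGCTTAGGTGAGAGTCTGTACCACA

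The second family, of 10 regions on 6 chromosomes, is shown by these members. chr4:114073043-114073342 (+ strand): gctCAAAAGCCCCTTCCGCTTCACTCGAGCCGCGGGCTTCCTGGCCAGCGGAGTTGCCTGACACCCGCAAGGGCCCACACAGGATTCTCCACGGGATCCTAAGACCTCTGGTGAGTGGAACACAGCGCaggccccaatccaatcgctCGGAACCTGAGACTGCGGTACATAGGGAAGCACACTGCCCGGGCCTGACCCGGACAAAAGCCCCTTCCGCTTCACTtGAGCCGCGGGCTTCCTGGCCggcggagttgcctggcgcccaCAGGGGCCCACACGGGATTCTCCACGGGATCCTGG chr1:139650038-139650337 (- strand): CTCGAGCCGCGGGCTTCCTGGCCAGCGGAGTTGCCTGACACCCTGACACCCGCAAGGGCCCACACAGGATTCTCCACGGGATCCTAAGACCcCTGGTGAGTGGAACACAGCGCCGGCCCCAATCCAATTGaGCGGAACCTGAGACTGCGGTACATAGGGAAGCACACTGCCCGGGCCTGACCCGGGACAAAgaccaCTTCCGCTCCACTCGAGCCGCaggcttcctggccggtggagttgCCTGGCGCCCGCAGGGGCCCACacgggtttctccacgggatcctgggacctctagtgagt chr4:112349290-112349406 (- strand): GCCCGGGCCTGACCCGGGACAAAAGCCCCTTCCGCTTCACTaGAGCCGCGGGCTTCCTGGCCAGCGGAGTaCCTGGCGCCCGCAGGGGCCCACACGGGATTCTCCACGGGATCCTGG

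The capitals cover 96.4%, 98.4% and 91.8% of the bases shown for the first family and 85.3%, 77.3% and 98.3% of those shown for the second. The region on chromosome 14 had scores of 80.9 (liver), 84.3 (kidney), 100 (lung) and 100 (B cells). The second family's region on chromosome 1, whose hotspots lie within chr1:139649846-139650366, had 89.3, 100, 100 and 100 in the same order. None of the 16 other sets had a hotspot at either region.

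Facts of the 20 sets come first. B6xSPRET had 205195 hotspots (liver), 181072 (kidney), 164864 (lung) and 88838 (B cells). Its number was the lowest of the 5 hybrids in liver and kidney, whereas B6xC3H had fewer in lung (147871) and B cells (76055). The mean was 159992 hotspots in B6xSPRET against 198096 in the others, a difference of -38104 ± 9396 (SD over tissues, n = 4), which did not pass the test (exact two-sided permutation test within tissues, p = 0.0528, adjusted over 56 tests 0.338). The smallest p that the 625 choices of 1 hybrid per tissue allow is 0.0016. B6xSPRET covered 76.5 Mb (liver), 62.1 Mb (kidney), 56.0 Mb (lung) and 34.6 Mb (B cells), on average 17.4 Mb less than the others (adjusted p = 0.338 by the same exact test). The sets give no read counts. The study's depth tables list the fewest reads for B6xSPRET in each tissue, with B6xC3H nearest to it in lung and B cells. Against B6xC3H alone, the mean difference was 2401 hotspots and -3.81 Mb. Marker genes were checked by start windows (1 kb to either side of a gene's starts), which were open in B6xSPRET for 59.8% to 70.8% of all 20720 genes. Of 25 liver genes, 25 were open in its liver, 13 in its kidney, 10 in its lung and 2 in its B cells. Of 22 kidney genes, 20 were open in kidney and 2 to 7 elsewhere, and of 20 lung genes, 19 were open in lung and 4 to 9 elsewhere. Of 23 B cell genes, 19 were open in B cells and 19 also in lung, so this list did not tell those tissues apart.

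**Figure D1:**
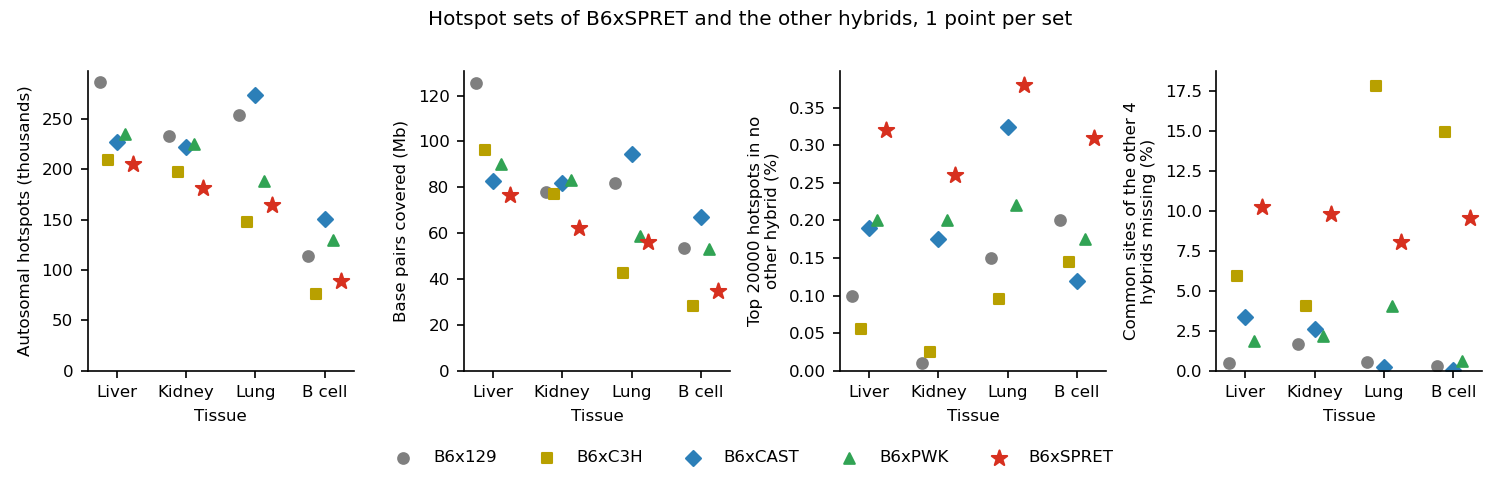
Each point is a hotspot set, with tissue on the x axis and, from left to right, the number of autosomal hotspots, the length they cover (Mb), the percent of the 20000 highest-scoring hotspots found in no other hybrid of the tissue and the percent of the sites common to the other 4 hybrids that the set lacks. B6xSPRET (red stars) is above all others in 4 of 4 tissues only in the third panel, with 0.32%, 0.26%, 0.38% and 0.31% in liver, kidney, lung and B cells.

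To compare sets of unequal size, the 20000 highest-scoring hotspots of each set were taken, with ties at the limit drawn at random. The cut falls at unlike scores: in liver the other hybrids had 27855 to 37325 hotspots at the ceiling and B6xSPRET 18404. The 20000 of each other liver set were therefore a random draw of hotspots at the ceiling. In B6xSPRET, 64 of these 20000 hotspots (liver), 52 (kidney), 76 (lung) and 62 (B cells) overlapped no hotspot of the tissue's other 4 sets by even 1 bp. The other hybrids had 11 to 40 (liver), 2 to 40 (kidney), 19 to 65 (lung) and 24 to 40 (B cells), so the B6xSPRET count did not overlap theirs in any tissue. The mean share was 0.317% ± 0.049 (SD over tissues) in B6xSPRET and 0.149% ± 0.040 in the others, a difference of 0.168 ± 0.017 percentage points (n = 4 tissues, exact two-sided permutation test, p = 0.0016, adjusted p = 0.0448 over 56 tests). This p is the smallest the design allows. Among the hotspots found in no other hybrid, 58 (liver), 11 (kidney), 19 (lung) and 13 (B cells) reached the ceiling in B6xSPRET. The other hybrids had 11 to 40, 1 to 35, 13 to 62 and 20 to 39, so at the ceiling B6xSPRET exceeded them all in liver alone. The result depends on what counts as overlap: when at least 50% of the hotspot had to be covered, the difference was -0.006875 percentage points (p = 0.984 by the exact test). With the 75000 highest hotspots it was 1.67 percentage points (adjusted p = 0.0448 by the exact test).

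These strong B6xSPRET-only hotspots were broader than those of the other hybrids. Their median width was 560 bp (liver), 341 bp (kidney), 277 bp (lung) and 245.5 bp (B cells), above every other hybrid in its tissue, where the widths ran from 106 to 507.5 bp (liver), 112 to 247 bp (kidney), 110 to 205.5 bp (lung) and 110.5 to 193.5 bp (B cells). The mean difference was 170 ± 67.8 bp (n = 4 tissues, exact two-sided permutation test, p = 0.0016, adjusted p = 0.0448). The median score was 100 (liver), 54.8 (kidney), 43.6 (lung) and 49.0 (B cells) in B6xSPRET. In the other hybrids it was 100, except 83.3 in B6x129 kidney, so outside liver widths were not compared at like score. The repeat share of the B6xSPRET-only hotspots (50.1% against 42.1%, adjusted p = 0.769), their G and C content (51.2% against 46.2%, adjusted p = 0.338) and promoter share (0.732% against 3.34%, adjusted p = 0.769) did not pass the same exact test. Many of them recurred across the tissues of B6xSPRET. Another B6xSPRET tissue also had a hotspot at 38 of 64 (59.4%, liver), 43 of 52 regions (82.7%, kidney), 70 of 76 regions (92.1%, lung) and 49 of 62 regions (79.0%, B cells). All 4 tissues of B6xSPRET had one at 8 of the 64 liver regions (12.5%), 33 of the 52 kidney regions (63.5%), 67 of the 76 lung regions (88.2%) and 42 of the 62 B cell regions (67.7%). In the other hybrids the share with a hotspot in another of their own tissues ran from 9.09% to 100% (2 of 2 in B6x129 kidney), and that of B6xCAST liver, 63.2%, was above B6xSPRET liver. The share found in all 4 of their own tissues ran from 0 to 22.9%. The difference in recurrence was not tested.

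Hotspots that only B6xSPRET had were also traced over regions merged from all 20 sets, 714403 in number. Of these regions, 39907 had a hotspot in at least 1 B6xSPRET set and in none of the 16 others. Most of them, 38102, were open in 1 tissue of B6xSPRET, 1263 in 2, 300 in 3 and 242 in 4. The fall from 3 to 4 tissues was small in B6xSPRET, whereas B6xCAST went from 377 to 81 and B6xPWK from 104 to 50. B6xCAST exceeded B6xSPRET at 1 tissue (81713), 2 tissues (3673) and 3 tissues (377), so B6xSPRET exceeded all 4 other hybrids only at 4 tissues. At 3 tissues its count was above those of B6x129 (179), B6xPWK (104) and B6xC3H (26). Over hotspots of FDR 1% the counts at 4 tissues were 206 in B6xSPRET, 71 in B6xCAST and 40 in B6xPWK. Over the 75000 highest hotspots of each set they were 76, 7 and 6.

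**Figure D2:**
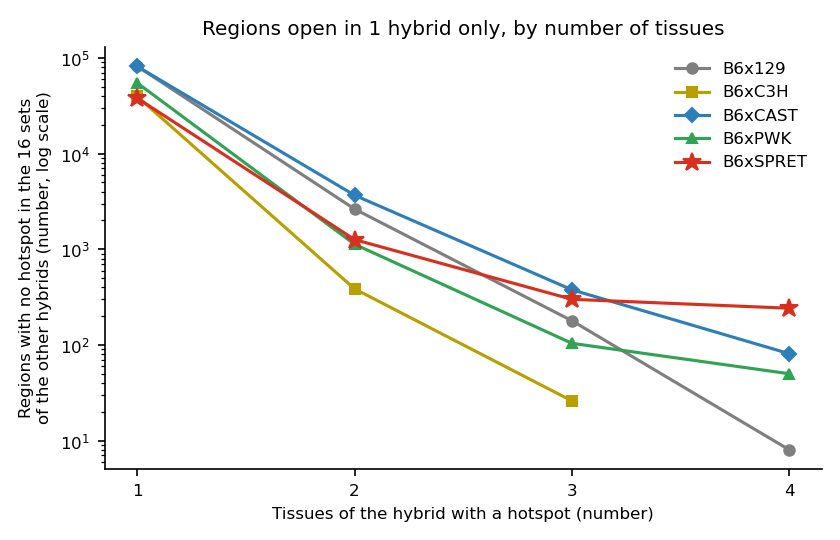
The number of merged regions found in a single hybrid and absent from the 16 sets of the other hybrids (y axis, log scale) against the number of that hybrid's tissues with a hotspot there (x axis). The B6xSPRET line (red stars) starts lowest, at 38102 regions in 1 tissue, and ends highest, at 242 regions in 4 tissues. B6xC3H has no point at 4 tissues because its count there is 0.

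The 242 regions were not strong hotspots as a group. Their median score was 9.005 (liver), 8.09 (kidney), 10.0 (lung) and 5.11 (B cells), and 7, 8, 15 and 2 of them reached the ceiling. They lay far from genes: 3 of 242 (1.24%) had their centre within 1 kb of a gene start, against 30.2% of the 33467 regions open in all 4 B6xSPRET tissues, and 62 (25.6%) lay in a protein-coding gene, against 65.9%. The median distance to the nearest start was 76509 bp, against 9576 bp over the 33467 regions. In 168 of the 242 centre windows at least 50% of the bases were repeat-masked, and the mean was 66.2% masked, against 12.2% over the 33467. B6xCAST-only and B6xPWK-only regions had 40.1% and 40.5%, and the 8 B6x129-only regions had 59.8%. CTCF, the zinc finger protein that marks insulators and loop anchors, had a ChIP-seq hotspot in mouse embryonic stem cells of B6xCAST at 8 of the 242 regions (3.31%), against 63.7% of the 33467, 21 of 81 B6xCAST-only regions and 1 of 50 B6xPWK-only regions. That CTCF map comes from B6xCAST cells, which have no SPRET/EiJ haplotype. These features describe regions that the counts above selected, and no test was made of them.

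**Figure D3:**
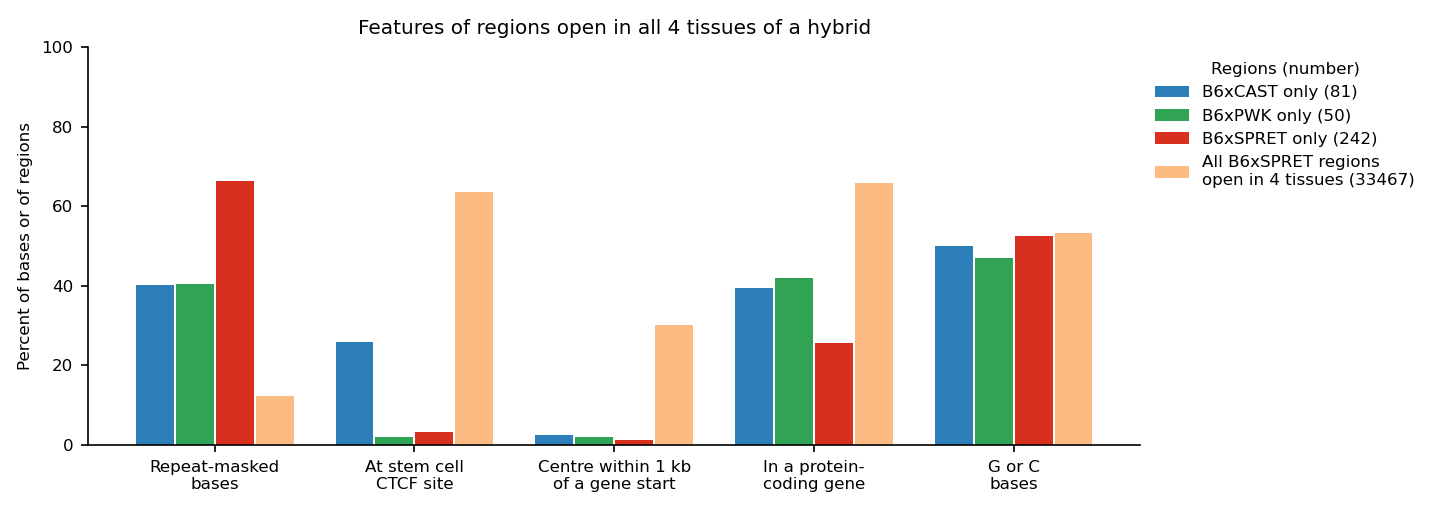
Percent of repeat-masked bases and of G or C bases in the centre windows, and percent of regions at a stem cell CTCF site, within 1 kb of a gene start or in a protein-coding gene (x axis), for regions open in all 4 tissues of a hybrid. The 242 B6xSPRET-only regions (red bars) have the highest repeat bar, 66.2%, and low bars for CTCF sites and gene starts, 3.31% and 1.24%, beside 63.7% and 30.2% over all 33467 B6xSPRET regions open in 4 tissues.

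The regions were not spread over chromosomes like other hotspots. Chromosome 13 held 27 (11.2% of the 242, against 4.38% of the 33467), chromosome 12 held 22 (9.09% against 3.99%) and chromosome 14 held 17 (7.02% against 3.69%), whereas chromosome 11 held 4 (1.65% against 7.98%). A further one of the 242 lay within 100 kb of 80 of them, so the regions are not independent of each other. The nearest gene belonged to the Skint family of immunoglobulin-like membrane proteins for 13 regions, against 18 of the 33467, and was a gene named Zfp, for zinc finger protein, for 18 regions, against 702 of the 33467. It was an olfactory or vomeronasal receptor gene for 8 regions, against 150. Such receptor genes were nearest for 3 of 81 B6xCAST-only and 0 of 50 B6xPWK-only regions, so this trait was not particular to B6xSPRET. A Zfp-named gene was nearest for 2 of the 81 and 2 of the 50, and a Skint gene for 0 of either group. No test was made of these counts.

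Sequence words also set the group apart from other B6xSPRET regions. The letters AAGATGGC, a consensus of the zinc finger factor YY1, were searched on both strands of the centre windows and found in 24 of 242 (9.92%), against 456 of the 33467 (1.36%). Of the 27 whole regions with a match, 23 belonged to the first family. The CTCF consensus matched 0 of 242 windows against 8.01%, and the ETS consensus CCGGAAG matched 1 (0.413%) against 2.85%. The GATA consensus AGATAA was in 14 windows (5.79%) against 5.14%. A match is a run of letters in the B6 reference and not a bound site, and the SPRET/EiJ sequence was not used here.

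The first family was 89.8% repeat-masked with 57.7% G and C, and its regions had a median width of 193 bp. Its median scores were 9.26 (liver), 16.5 (kidney), 16.5 (lung) and 7.70 (B cells), and single regions ran from 1.66 to the ceiling. The word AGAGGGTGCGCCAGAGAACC, which 15 of its regions hold, occurs 6666 times on the autosomes of the reference. A B6xSPRET hotspot covered 26 (liver), 26 (kidney), 31 (lung) and 25 (B cells) of these copies, and each other hybrid covered 1 to 12 in any tissue. Without the 19 copies inside the 242 regions, B6xSPRET covered 8, 7, 12 and 7 of 6647. The others covered 3 to 6 (liver), 1 to 11 (kidney), 1 to 12 (lung) and 2 to 9 (B cells), so only liver was above them all. The highest share of copies in a hotspot of any set was 0.465%, in B6xSPRET lung. The second family was 88.9% masked, with 58.7% G and C. Its word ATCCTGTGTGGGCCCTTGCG occurs 3524 times. B6xSPRET hotspots covered 14, 27, 21 and 18 copies in liver, kidney, lung and B cells, and the other hybrids 1 to 14. Without the 7 copies inside the 242 regions, B6xSPRET covered 9, 21, 15 and 11 of 3517, beside 3 to 6 (liver), 1 to 7 (kidney), 1 to 14 (lung) and 2 to 4 (B cells) in the others. With stretches of 30 bases in place of 20, 74 of the 242 regions (30.6%) shared sequence and the most numerous family had 29 members. Among the other hybrids' regions, 12 of 50 in B6xPWK, 3 of 81 in B6xCAST and 0 of 8 in B6x129 shared a stretch of 20 bases. Larger groups offer more chances to share one, and no test was made.

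In the other direction, few sites were lost. A hotspot in all 16 other sets and in none of the 4 of B6xSPRET was found at 5 of 29239 regions, against 3 for B6xC3H, 1 for B6x129 and 0 for B6xCAST and B6xPWK. All 5 lay at stem cell CTCF sites, as did 66.4% of the 29239 regions and 54.7% of the 1750 regions of like median score. 2 were intronic, in Oscp1 (chr4:126062931-126063247) and in Dgcr2 (chr16:17858653-17858934), and 3 were intergenic, at chr7:100325332-100326103, chr13:107927852-107928166 and chr19:9837211-9837409. Their scores in the other 16 sets were low: the medians were 11.8, 5.01, 10.2, 8.96 and 10.98 in the order given, against a median of 49.2 over all 29239 regions. Over the 75000 highest hotspots of each set the count was 0. A B6xSPRET lung hotspot lay 63 bp from the Oscp1 site and another 591 bp from the Dgcr2 site, and all other gaps were at least 1280 bp. Absence in lung at the Oscp1 site therefore rests on the overlap rule. The 150-base centre windows of the Oscp1 and chromosome 13 sites are shown as examples from a gene and from between genes. No CTCF consensus match was found in them, so they are in lower case.
chr4:126063014-126063163 (+ strand): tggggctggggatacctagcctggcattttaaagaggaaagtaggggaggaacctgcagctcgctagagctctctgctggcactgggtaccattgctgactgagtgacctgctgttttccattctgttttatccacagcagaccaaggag
chr13:107927934-107928083 (+ strand): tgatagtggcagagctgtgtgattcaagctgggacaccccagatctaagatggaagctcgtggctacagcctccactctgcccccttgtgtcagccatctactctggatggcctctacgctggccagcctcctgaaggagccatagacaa

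Over each tissue on its own, B6xSPRET lacked more of the common sites. Of the sites with a hotspot in all 4 other hybrids, it had none at 10.2% (liver, 13582 of 133175), 9.79% (kidney, 13227 of 135114), 8.05% (lung, 8199 of 101910) and 9.54% (B cells, 5223 of 54760). In liver and kidney this was the highest of the 5 hybrids, whereas B6xC3H lacked 17.8% in lung and 14.9% in B cells. The mean, 9.39% ± 0.94 against 3.79% ± 1.37 (SD over tissues, n = 4), did not pass the exact two-sided permutation test (p = 0.0544, adjusted p = 0.338), and against B6xC3H alone the difference was -1.28 percentage points. The sites it lacked were weak in the others. In liver, B6xSPRET lacked 44.5% of the sites whose lowest score in the other hybrids was under 2, 4.80% of those from 5 to 10 and 0 of the 19225 sites at the ceiling in all 4. The missing sites recurred between tissues, as they did in the other hybrids. Of sites common in both and missing in B6xSPRET liver, 12.8% were also missing in its kidney, against 4.32% of those present in liver. The other hybrids had 5.08% to 14.6% against 1.02% to 1.89%. Over the 4 tissues, 1 site at the ceiling in every other hybrid was absent from B6xSPRET, in B cells at chr7:15197699-15197807, 109 bp wide and 190968 bp from the start of Obox2, its nearest gene. None of the other B6xSPRET tissues had a hotspot there either.

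The general make-up of the 20000 highest hotspots was not told apart from that of the other hybrids. Promoters held 42.5% of them in B6xSPRET and 40.9% in the others (adjusted p = 0.769, exact permutation test), repeats 8.06% and 8.66% of the window bases (adjusted p = 0.367) and stem cell CTCF sites 34.8% and 38.1% of the hotspots (adjusted p = 0.769). Of 16 motif consensuses 0 were called, with 1 at an unadjusted p of 0.05 or less: the ETS consensus CCGGAAG matched 5.22% of the windows in B6xSPRET and 4.69% in the others, higher in 4 of 4 tissues by a mean of 0.529 ± 0.207 percentage points (p = 0.04, adjusted p = 0.338, exact permutation test). Of the 19 autosomes 0 were called, and 0 had an unadjusted p of 0.05 or less. Overlap with the other hybrids, as the base-pair Jaccard index, was 0.597 (liver), 0.613 (kidney), 0.558 (lung) and 0.546 (B cells) for B6xSPRET, with a mean of 0.578 against 0.590 (adjusted p = 0.776, exact permutation test). Over the whole table, 2 of 56 tests were called, the share and the width of B6xSPRET-only hotspots, and 5 had an unadjusted p of 0.05 or less.

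At gene starts, 3 genes had a start window open in all 4 B6xSPRET tissues and in none of the 16 other sets, against 1 each in B6xCAST and B6xPWK and 0 in B6x129 and B6xC3H. They were H2-M2 (chromosome 17, 37480851 to 37483552, minus strand), a nonclassical MHC class I gene, Mill1 (chromosome 7, 18245347 to 18266092, plus strand), an MHC class I-like gene, and Spesp1 (chromosome 9, 62270729 to 62282208, minus strand), a sperm protein gene. The H2-M2 hotspot 110 to 131 bp from the start had scores of 25.97, 9.62, 14.5 and 2.17 in liver, kidney, lung and B cells, and a further one, 569 bp from the start and in liver alone, had 60.1. Mill1 had scores of 11.5, 13.5, 27.8 and 4.20 in liver, kidney, lung and B cells, with the hotspot centre 969 to 1004 bp from the start and 77.3% to 100% of its bases repeat-masked. Spesp1 had 2.24, 3.96, 3.43 and 8.56 in the same order, 30 to 120 bp from the start. No start window was open in all 16 other sets and closed in all 4 of B6xSPRET, and 0 of 10963 was the count by this rule, which is no test.

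Within tissues, start windows closed only in B6xSPRET were 363 (liver, 2.61% of the 13905 open in all 4 other hybrids), 162 (kidney, 1.14%), 137 (lung, 1.0%) and 106 (B cells, 0.912%). Those open only in B6xSPRET were 121 (liver, 2.61% of the 4638 closed in all others), 84 (kidney, 1.75%), 70 (lung, 1.55%) and 121 (B cells, 1.82%). In the other hybrids the closed-only share ran from 0.0148% to 0.682% (liver), 0.234% to 0.824% (kidney), 0.0296% to 2.43% (lung) and 0 to 3.98% (B cells), so that of B6xSPRET was the highest in liver and kidney, whereas B6xC3H had the highest in lung and B cells. Their open-only share ran from 0.913% to 10.96%, and that of B6xSPRET was the lowest of the 5 in kidney and lung. Of 10 endothelial genes, 10 were open in each of the other 4 liver sets and 6 in B6xSPRET liver, so 4 of 10 were closed only there, beside the 2.61% over all genes. They were Cdh5 and Pecam1, adhesion proteins of endothelial junctions, Emcn and Robo4, with scores of 2.09 to 59.9 in the other hybrids. Their lowest scores there were 3.48, 2.52, 2.09 and 3.51 in that order. Of all common liver sites with a lowest score from 2 to 5, B6xSPRET lacked 24.9%. The 2.61% covers start windows of every score and is not a comparison at like score. Tek and Kdr, receptors for angiopoietins and VEGF, were open in B6xSPRET liver at 2.38 and 4.24, below their scores in each other hybrid, which were 2.81 to 11.1 and 8.45 to 32.8. Egfl7 had 2.86 against 8.13 to 43.9. Sox7, Tie1 and Esam had 100, 92.6 and 59.3 in B6xSPRET liver and 71.2 to 100 in the others. All 10 endothelial genes were open in B6xSPRET kidney and in its lung.

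Other genes closed only in B6xSPRET liver were the T cell genes Lck and Bcl11b (2 of the 4 of that list open in all others), the lung-list genes Tbx4 and Sox17 (2 of 10), Umod and Aqp1 of the kidney list (2 of 6), Ms4a1 of the B cell list (1 of 9), S100a8 of the myeloid list (1 of 6) and Egr3 of the immediate early genes (1 of 16). No liver gene was closed only in B6xSPRET liver. Aqp1 is also expressed in endothelial cells and Sox17 is an endothelial factor, and the score of the closed members in the other hybrids ranged from 1.73 for Ms4a1 to 40.5 for S100a8. In whole tissue, fewer cells of a type and less open chromatin per cell cannot be told apart, and B6xSPRET liver also had the fewest reads. The part of depth in these counts was not tested. In kidney, Apoh (1 of 13 liver genes) and Cd72 (1 of 10 B cell genes) were closed only in B6xSPRET. In lung, Cyp2a5 and Cyp3a57 (2 of 22 drug metabolism genes) and Cspg5 (1 of 8 male-biased liver genes) were, and in B cells Rpl3 was (1 of 35 ribosomal protein genes), the last with scores of 2.48 to 13.9 in the others. Beside these counts, the closed-only share over all genes was 2.61% (liver), 1.14% (kidney), 1.0% (lung) and 0.912% (B cells). For each of these genes the lowest score in the tissue's other sets was 1.54 to 3.42, except 6.47 for S100a8. No erythroid, circadian clock, MHC, interferon-induced or major urinary protein gene was closed only in B6xSPRET in any tissue. Olfactory and vomeronasal receptor genes were open only in B6xSPRET for 44 (liver, 3.80% of the 1159 closed in all others), 14 (kidney, 1.15% of 1222), 16 (lung, 1.29% of 1241) and 14 (B cells, 1.10% of 1276), beside 2.61%, 1.75%, 1.55% and 1.82% over all genes. They were closed only there for 7, 2, 1 and 2. Of 383 Zfp-named genes, 2 of 332, 1 of 334, 2 of 327 and 2 of 304 open in all others were closed only in B6xSPRET. Open only there were 1 of 41, 0 of 42, 0 of 37 and 1 of 56 closed in all others.

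The length covered by hotspots over a gene and 10 kb to either side, scaled to a common total, was compared between the 4 B6xSPRET and 16 other sets for 17834 genes (limma on log2(scaled bp + 150), with tissue as a covariate). The fit called 15 genes higher (0.0841%) and 3 lower (0.0168%) in B6xSPRET at an adjusted p of 0.05, and the median log2 difference over all genes was 0.02. At an unadjusted p of 0.05 or less there were 1836 genes. Some called genes lie near each other, and the rest are spread over other chromosomes. Ccl28 and Hmgcs1 are neighbours on chromosome 13, Zfp934 and Zfp935 overlap on the same chromosome, Gm5039 and Gm8332 lie on chromosome 12, and Pde10a, 1700010I14Rik, Rsph3a and Rsph3b lie on proximal chromosome 17. Zfp934 and Zfp935, and Pde10a and 1700010I14Rik with their flanks, share covered bases. Every called gene differed in the same direction in 4 of 4 tissues.

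1700010I14Rik (ENSMUSG00000023873, chromosome 17, 8988333 to 9011949), a gene known by its RIKEN clone name, had in B6xSPRET 15295 (liver), 11005 (kidney), 19326 (lung) and 32281 (B cells) scaled bp. The other hybrids had 1172 to 1790, 973 to 1173, 931 to 1385 and 1999 to 2615 in the same order, so no value overlapped. The log2 difference was 3.52 ± 0.13 (SE, limma adjusted p = 6.29e-14). Ccl28 (ENSMUSG00000074715, chromosome 13, 119623819 to 119654359) encodes a chemokine of mucosal epithelia. It had in B6xSPRET 14416 (liver), 11430 (kidney), 20922 (lung) and 23046 (B cells) scaled bp. The other hybrids had 1197 to 2624, 2375 to 4706, 1181 to 1679 and 1203 to 1743, again with no overlap. Its log2 difference was 3.07 ± 0.24 (SE, limma adjusted p = 8.59e-08). The next gene on that chromosome, Hmgcs1, encodes the cytosolic HMG-CoA synthase of cholesterol synthesis and had 12929, 4706, 11110 and 15015 scaled bp in B6xSPRET, above all others in each tissue, with a log2 difference of 1.32 ± 0.21 (SE, limma adjusted p = 0.00515).

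Pde10a, a cyclic nucleotide phosphodiesterase gene, had 23311, 32201, 28539 and 41763 scaled bp in B6xSPRET liver, kidney, lung and B cells and at most 17265, 20117, 12399 and 15992 in the others (log2 difference 1.26 ± 0.20, limma adjusted p = 0.00614). Restricted to 10 kb around its start, its log2 difference was −0.20 (adjusted p = 0.769), and that of 1700010I14Rik was 0.31 (adjusted p = 0.426), so the excess lay away from the starts. Gm5039, a predicted gene on chromosome 12, had 3235, 990, 9320 and 1424 scaled bp in B6xSPRET and 0 to 439 in the others (log2 difference 3.64 ± 0.41, limma adjusted p = 4.15e-05). It passed the filter of 500 scaled bp only through B6xSPRET, so its p-value is no independent support. Rsph3b and Rsph3a, paralogs that encode a radial spoke protein of cilia, differed by 1.73 ± 0.17 and 0.90 ± 0.13 on the log2 scale (limma adjusted p = 4.10e-06 and 0.00281). Reads of such near copies can be misplaced or dropped by the filter on unique mapping, so the split between them is uncertain. The zinc finger genes Zfp934, Zfp382 and Zfp935 had log2 differences of 0.94, 0.73 and 0.70 (limma adjusted p = 0.00705, 0.0385 and 0.0426). The called genes with a mean under 500 scaled bp were Olfr617, Gm1330, Gm8332, Skint4 and Muc16, all higher in B6xSPRET. The filter counts B6xSPRET in the mean of a tissue. For Olfr617 and Muc16 the highest such means were 547 and 506 scaled bp, with log2 differences of at least 2.39 and 1.26 in every tissue. Both therefore entered the fit only through B6xSPRET, and their p-values are no independent support. Gm1330, Gm8332 and Skint4 may also have entered it in this way.

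The 3 lower loci were small changes in covered length, and their calls depended on the settings. Cstf1 was not called in 10 of 14 alternatives, Ly6k in 8 of 14 and Gm6665 in 7 of 13. Cstf1, a subunit of the factor that cleaves pre-mRNA 3′ ends, had 245, 602, 375 and 788 scaled bp in B6xSPRET liver, kidney, lung and B cells, below the lowest of the other hybrids in each tissue, 410, 988, 934 and 1066 (log2 difference −0.92 ± 0.17, limma adjusted p = 0.0275). Ly6k, a Ly6 family gene best known from testis, had 244, 61, 405 and 1265 against lowest values of 501, 236, 856 and 2029 in the others (log2 difference −1.10 ± 0.18, limma adjusted p = 0.00963). Gm6665 was listed at 0 in B6xSPRET kidney, lung and B cells and had 474 scaled bp in liver. The other hybrids had 119 to 1410 over the same tissues and 509 to 825 in liver (log2 difference −1.92 ± 0.33, limma adjusted p = 0.0106).

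**Figure D4:**
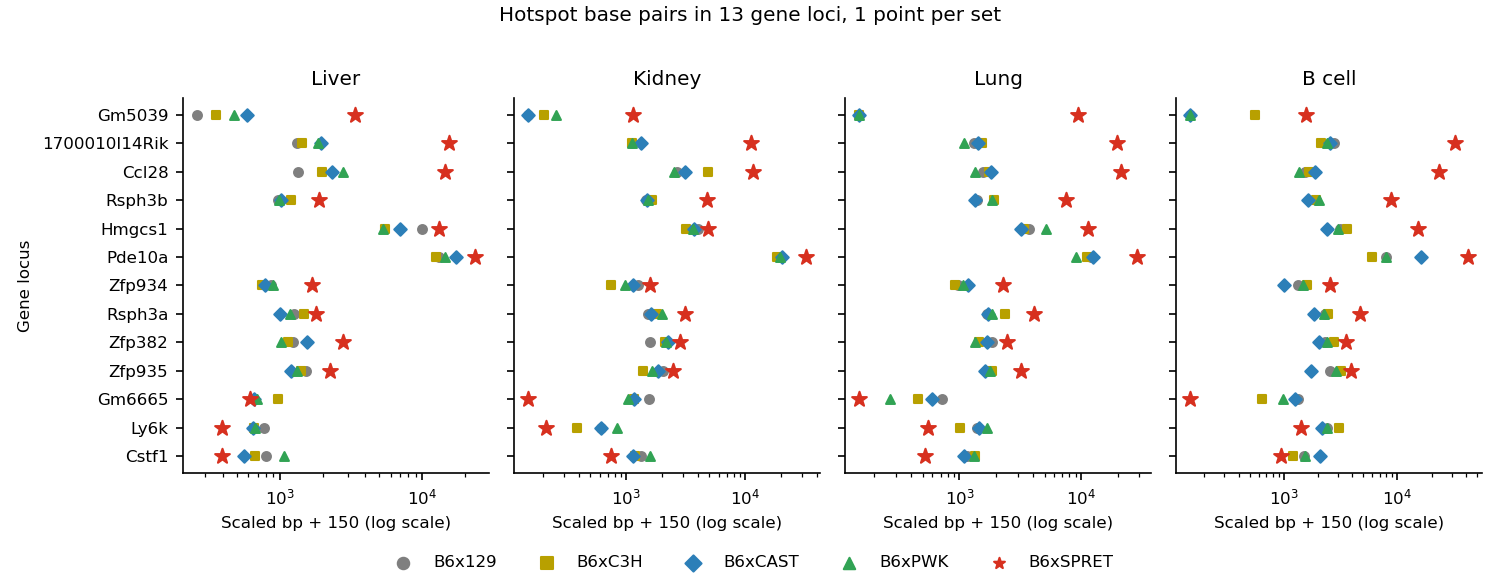
Scaled hotspot base pairs plus 150 (x axis, log scale) over each of 13 called gene loci (y axis), with 1 point per hybrid in each tissue panel. B6xSPRET (red stars) lies to the right of all other hybrids for the first 10 loci and to the left for Gm6665, Ly6k and Cstf1, with 15295 scaled bp for 1700010I14Rik in liver against 1172 to 1790, and 9320 for Gm5039 in lung against 0.

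Few genes of the gene lists were called. Of 350 Zfp-named genes tested 3 (0.857%) were called higher, the genes named above, beside 0.0841% over all genes. Of 192 olfactory and vomeronasal receptor genes 1 (0.521%) was, Olfr617. It passed the filter only through B6xSPRET, so this receptor share is no independent support. The 0.0841% also counts genes that passed in that way. The difference was above 0 for 66.9% of the Zfp-named genes and 42.2% of the receptor genes, beside 55.3% of all genes. No gene of the other lists was called: those of liver, kidney, lung, B cell, endothelial, erythroid, myeloid, T and NK cell, ribosomal protein, circadian clock, immediate early, MHC, interferon-induced, drug metabolism, major urinary protein, male-biased liver and female-biased liver genes. List medians ran from -0.11 on the log2 scale for lung genes to 0.15 for immediate early genes, beside 0.02 for all genes. The largest difference in a list that was not called was 2.73 for Vmn1r78 (limma adjusted p = 0.110). Among cell type markers it was −1.17 for Gata3 (adjusted p = 0.254), followed by −0.97 for Sox17 (adjusted p = 0.492), which had −2.88 in liver alone. Cyp2c55 had 1.08 (adjusted p = 0.170) and Ces3a −0.93 (adjusted p = 0.295).

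The excess on chromosomes 13 and 17 was then mapped in windows, a step chosen after these loci had been seen and so without a test. Of 23924 windows of 100 kb with a hotspot, 7 (0.0293%) were at least 1 log2 unit above the mean of the other hybrids in 4 of 4 tissues and 2 (0.00836%) at least 1 below. The numbers higher in 4 tissues were 4 for B6xPWK, 1 for B6xCAST and 0 for B6x129 and B6xC3H. The highest was chr17:9000001-9100000, with 14396, 10207, 18490 and 28423 scaled bp in B6xSPRET liver, kidney, lung and B cells and at most 1601, 1197, 1355 and 1824 in the others. Next on that chromosome were chr17:8800001-8900000, with log2 differences of 1.42 to 3.10, and chr17:6800001-6900000, with 1.46 to 2.36. On chromosome 13, chr13:119600001-119700000 had 26454, 16733, 33550 and 43132 scaled bp, against 3035 to 7240.5 in the others, and chr13:61900001-62000000 had log2 differences of 1.5 to 2.13. The other 2 were chr12:18300001-18400000 and chr7:103500001-103600000, a cluster of olfactory receptor genes that includes Olfr617. The 2 lower windows, chr10:58200001-58300000 and chr14:43500001-43600000, were −1.61 and −1.72 on average, but neither set B6xSPRET apart from every other hybrid. In the first, B6xSPRET had 1929 to 2478 scaled bp, B6x129 and B6xC3H had 1605 to 2520 and were also lower by the same rule, and B6xCAST and B6xPWK had 10303 to 19288. In the second, B6xSPRET kidney, at 471, was above B6x129 kidney, at 435.

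At 10 kb another rule was used. A window counted where a hybrid exceeded every other in each tissue, with a mean at least 2 times that of the others. Runs of 3 or more neighbouring windows of this kind were found only in B6xSPRET, and there were 2. They were chr13:119630001-119660000, over Ccl28, with a mean of 17042 scaled bp against 1631 in the others, and chr17:8990001-9020000, over 1700010I14Rik, with 18491 against 494. In the third 10 kb of the chromosome 17 run, no other hybrid had a hotspot in any tissue, and B6xSPRET had 5004, 3732, 7066 and 10424 scaled bp in liver, kidney, lung and B cells. A further peak, in the 10 kb window that starts 150 kb before this run and lies within Pde10a, reached 6633, 8974, 9468 and 19219 scaled bp per 10 kb, against at most 603, 1524, 369 and 731 in the others. The excess consisted of more numerous or wider hotspots. The hotspot sets give neither read depth nor copy number over these stretches. Over the chromosome 13 window, B6xSPRET B cells had 43 hotspots with a median score of 4.66, whereas the other hybrids had 4 to 6 with medians of 16.2 to 78.8. In lung, the widest hotspot was 5533 bp in B6xSPRET and 958 to 1726 bp in the others. Over the chromosome 17 window, the median score was 7.61, 2.79, 11.7 and 9.58 in B6xSPRET liver, kidney, lung and B cells and 2.80 to 18.2 in the others. There, B6xSPRET lung had 10 hotspots, the widest 5631 bp, and the others 3 to 7, none wider than 605 bp. Scaled values can exceed the 10 kb of a window because each set was scaled to the mean total length of the 20 sets.

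**Figure D5:**
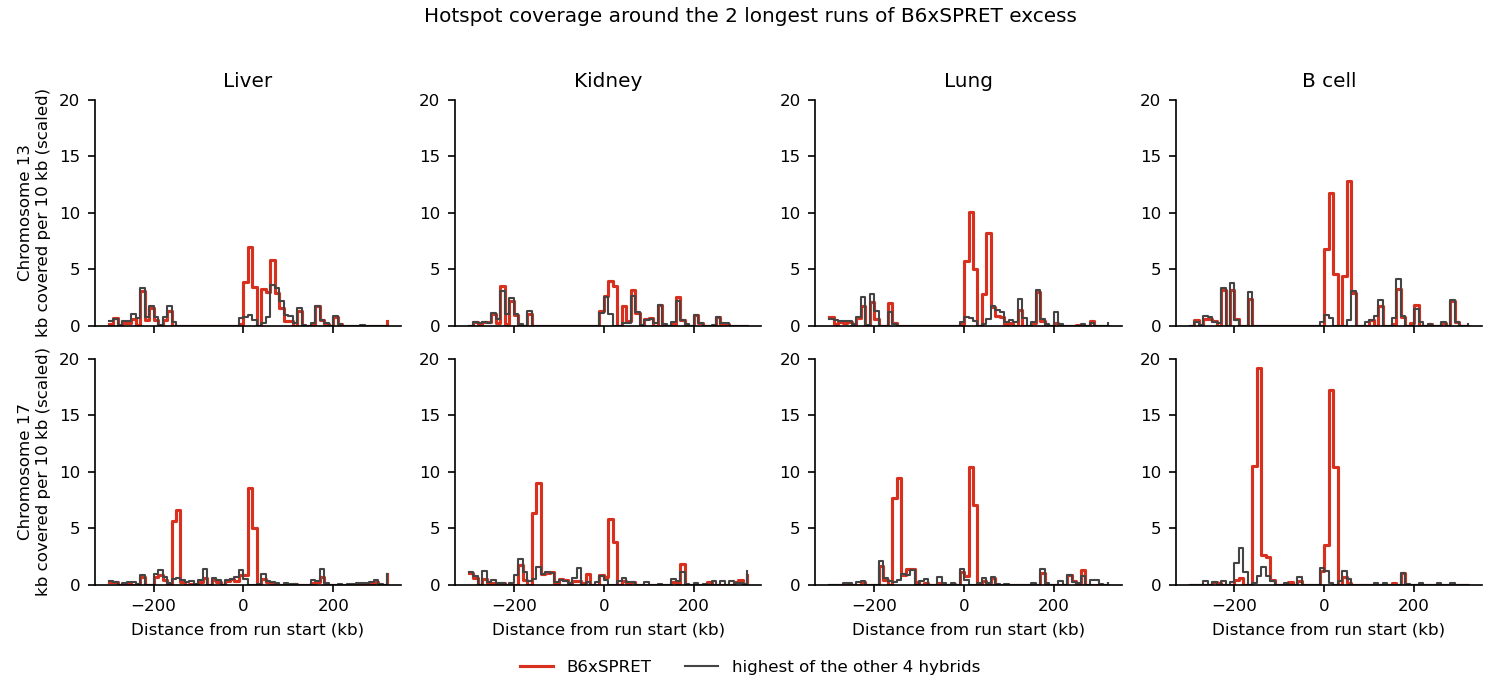
Scaled kb covered by hotspots per 10 kb window (y axis) against the distance from the start of the run on chromosome 13 (top) or chromosome 17 (bottom), in kb (x axis), with a panel per tissue. B6xSPRET (red) rises above the highest of the other 4 hybrids (grey) over the runs, to 11715 scaled bp on chromosome 13 and 17217 scaled bp on chromosome 17 in B cells, with a second peak 150 kb before the start of the chromosome 17 run.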

How the data were processed

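The 20 DNase-seq hotspot sets of 5 F1 hybrids and the mESC DNase-seq and CTCF ChIP-seq sets of B6xCAST were analysed. The 17 RNA-seq tables were not used here. One gene is not reported here. The authors trimmed reads, mapped them with BWA to mm10 and to a strain genome, kept unique autosomal and chromosome X alignments of sufficient quality, pooled libraries within each combination of strain and tissue, and ran hotspot2 on the pool with a limit of FDR 5%. In the deposited files column 9 holds the −log10 FDR of each hotspot, up to 100, which was used to rank hotspots and not as a signal. The files hold no read counts, so the depth behind a hotspot is unknown.

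Autosomal hotspots were compared by an exact two-sided permutation test within tissues (625 choices, Benjamini-Hochberg over 56 tests). The 20000 highest hotspots gave each set the same number, though not the same score limit, with ties at the limit drawn with a fixed seed. Covered length per gene was scaled to the mean total of the 20 sets, filtered at 500 scaled bp in at least 1 tissue and fitted with limma 3.58.1 in R 4.3.3, with 150 bp added before the log2. On simulated data for this comparison (17834 genes, 200 of them changed by a log2 of 1), 83% were recovered and 6.21% of calls were false. The simulated noise was independent between sets, with no effect shared by the tissues of a hybrid. These rates therefore do not measure the error of the real calls. Genes, repeat masking (lower-case bases) and sequences came from the mm10 reference and its GENCODE annotation.

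Named genes were the 10 largest called differences in each direction with a mean of at least 500 scaled bp and 1 direction in 4 of 4 tissues, start windows gained or lost in 4 of 4 tissues, and the genes of each list with the largest difference. The comparison, its 19 gene lists and the rules were chosen with earlier results of these data known. Windows of 100 kb and 10 kb and sequence families were added after the values had been seen. Alternatives were FDR 1%, the 75000 highest hotspots, other overlap, tie and flank rules, another pseudocount, no filter, no scaling, B6xC3H alone and leaving out each tissue or hybrid. Python 3.11.15, numpy 2.4.6 and matplotlib 3.10.9 were used.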

Additional observations from a re-analysis of the deposited data

Results flagged for a closer look

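In kidney, B6xSPRET stood apart from the 4 other hybrids in 3 measures, by the gap to its nearest neighbour relative to the range of the 5 sets. The base pairs covered were 62.1 Mb against 77.2 to 83.1 Mb, its mean Jaccard with the other hybrids was 0.613 against 0.642 to 0.651, and it lacked 9.79% of the common sites against 1.68% to 4.02%. In B cells, the share of strong common sites it lacked was 0.0228%, from 1 site, against 0 in the others. Chance would mark about 5% of the 48 groups of 5 sets looked at, and measures of a set depend on each other.

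The median hotspot width in B6xSPRET was above every other hybrid in lung, by 14.75 bp relative to their mean, and below every other hybrid in B cells, by -9.25 bp (262 and 267 bp against 233 to 257 and 270 to 284 bp). The difference between these tissues was not tested.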

How the results depend on the processing

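Of 366 alternative values, 239 kept the direction and side of the threshold, 89 kept the direction but lost the call, 24 moved and 14 changed sign. Without 1 tissue or hybrid, no test of a share or width can pass the adjusted threshold, so the lost calls there follow from fewer sets. In those fits the share of B6xSPRET-only hotspots differed by 0.138 to 0.188 percentage points and their width by 138.75 to 191 bp, and the number of their features called was 0. The locus fit called 4 (without lung) to 59 (without B6xC3H) genes, the median width differed by -4.08 to 3.92 bp, the Jaccard index by -0.0368 to 0.00244, G and C content by -0.0211 to 1.06 points and the share of strong sites missing by 0 to 0.00767 points.

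Against B6xC3H alone, chosen after the values had been seen except for the locus fit, the differences were 2401 hotspots, -3.81 Mb, 0.2375 points in the B6xSPRET-only share and -1.28 points in the missing share, and the locus fit, with fewer sets, called 1 gene. The median width difference, 0.625 bp over all hotspots, was -5.69 at FDR 1%, -73.4 over the 75000 and -119 over the 20000 highest. The Jaccard difference was 0.0120 over the 20000 highest, the B6xSPRET-only share -0.006875 with at least 50% overlap, the promoter share -1.59 with ties broken by width and the CTCF share 1.90 over all hotspots. The locus fit called 9 genes near starts only, 6 without scaling (where the median of all genes was -0.31 on the log2 scale) and 36 without the filter, and Pde10a was −0.20 near its start. Over the 75000 highest hotspots, regions lost in B6xSPRET numbered 0 and regions gained 76, settings added after the values had been seen. The cause was not tested. Zfp382, Zfp935, Cstf1, Ly6k and Gm6665 lost their call in most alternatives, and Zfp934 in 6 of 13. Sets were matched by tissue, but mice could not be paired because the sets carry no replicate numbers. The sets give no read counts, so what depth limits could not be measured.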

Other observations

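Regions found in all 4 tissues of a single hybrid also differed between the other wild-derived hybrids. The 81 B6xCAST-only regions lay at stem cell CTCF sites in 25.9% of cases, and the CTCF map is of B6xCAST cells, whereas 2.00% of the 50 B6xPWK-only and 3.31% of the 242 B6xSPRET-only regions did. B6xCAST-only and B6xPWK-only regions were nearer to gene starts, with median distances of 29892 and 27339 bp against 76509 bp for B6xSPRET. No test was made of these counts. The third B6xSPRET sequence family, of 6 regions on 5 chromosomes, has the word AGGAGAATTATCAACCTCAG in 4 of them, and this word occurs 307 times on the autosomes. B6xSPRET hotspots covered 5 (liver), 5 (kidney), 5 (lung) and 6 (B cells) of these copies, and the other hybrids covered 0 to 2. Without the 5 copies inside the 242 regions, B6xSPRET covered 0, 1, 0 and 1 of 302, beside 0 (liver), 0 to 2 (kidney), 0 (lung) and 0 (B cells) in the others.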
